A study of Zea mays with 14 samples.

Results

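H3K4me3 and H3K36me3 were compared in roots of seedlings of B73, an inbred line of maize (Zea mays). The comparison rests on 2 of the 14 libraries of the series, the H3K4me3 and the H3K36me3 chromatin immunoprecipitation (ChIP) libraries of root, which were chosen by their labels. Roots were harvested at 14 days and were not treated. Per the labels' protocols, chromatin came from 5 g of tissue of 10 pooled seedlings, 3 ChIP reactions were pooled, and the library was amplified over 18 PCR cycles. Each mark had 1 library, so there were no replicates and no test between conditions. Whole roots hold many cell types, and the 2 marks were read from separate libraries, so an overlap does not place both marks on the same chromosome copy or in the same cell.

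H3K4me3 is trimethylation of lysine 4 of histone H3. It is laid down around the start of transcribed genes by methyltransferases of the COMPASS (Trithorax) type. H3K36me3 is laid down behind elongating RNA polymerase II by methyltransferases of the SET2 type, such as SDG8 in Arabidopsis. In animals and yeast H3K36me3 lies over the gene body and increases toward its 3′ part, whereas in Arabidopsis it is shifted toward the 5′ part of the gene body.

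The peak lists give a clone (a sequenced piece of the genome), a start and an end, with no score and no strand, so the 5′ and 3′ ends of genes could not be told apart from them. The root lists held 39410 H3K4me3 peaks on 13147 clones and 27069 H3K36me3 peaks on 10802 clones. H3K4me3 peaks were shorter, with a median of 599 bp (quartiles 412 and 847 bp) against 915 bp (636 and 1313 bp) for H3K36me3. Either mark was found on 13569 clones and both on 10380 of them (76.5%). A further 2767 clones held H3K4me3 without H3K36me3, and 422 held H3K36me3 without H3K4me3. Whether clones share sequence was not checked, so a locus may be counted on several clones. Neighbouring peaks of the same list overlapped each other 1165 times for H3K4me3 and 504 times for H3K36me3, by a median of 41 and 67 bp, so some regions were listed in pieces. The read depth of the ChIP libraries is unknown here. With 1 library per mark, the 95% Wilson intervals below cover counting error over peaks or genes only.

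Most H3K36me3 peaks of root lay on H3K4me3, while fewer than 1 in 2 H3K4me3 peaks lay on H3K36me3. Counting an overlap from 1 bp, 16776 of the 27069 H3K36me3 peaks overlapped H3K4me3 (62.0%, interval 61.4 to 62.6%). In the other direction 17559 of the 39410 H3K4me3 peaks overlapped H3K36me3 (44.6%, interval 44.1 to 45.0%). The overlaps were long rather than marginal. The 17789 overlapping pairs shared a median of 646 bp (quartiles 450 and 876 bp), and under 50 bp were shared by 0.381% of overlapping H3K36me3 peaks. Where they overlapped, H3K36me3 covered a median of 99.0% of the H3K4me3 peak, and 47.9% of these H3K4me3 peaks lay wholly under H3K36me3. H3K4me3 in turn covered a median of 78.0% of the H3K36me3 peak (quartiles 60.4 and 92.5%). In bases, 12.3 Mb were under both marks, which is 46.4% of all H3K4me3 bases and 42.0% of all H3K36me3 bases. The relation was close to 1 to 1. Of the overlapping H3K36me3 peaks 94.2% held a single H3K4me3 peak, 5.67% held 2 and 0.173% held 3 or more, and 98.7% of the overlapping H3K4me3 peaks met a single H3K36me3 peak.

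The H3K4me3 peaks on H3K36me3 were longer than the others, whereas the H3K36me3 peaks without H3K4me3 had a wider spread of length. H3K4me3 peaks with H3K36me3 had a median of 738 bp (quartiles 529 and 988 bp) and those without it 503 bp (359 and 704 bp). H3K36me3 peaks with H3K4me3 had a median of 934 bp (694 and 1254 bp) and those without it 861 bp (535 and 1469 bp). A longer peak has more room to meet a peak of the other mark. How far this accounts for the difference in H3K4me3 length was not tested.

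H3K4me3 mostly lay inside the H3K36me3 peak or reached over 1 of its ends. Of the 16776 overlapping H3K36me3 peaks, 7491 had H3K4me3 inside only, with both outermost bases free of it (44.7%, interval 43.9 to 45.4%). H3K4me3 reached over 1 end in 7016 peaks (41.8%, interval 41.1 to 42.6%), and a single H3K4me3 peak covered the whole H3K36me3 peak in 2064 (12.3%). Separate H3K4me3 peaks at both ends were rare, with 205 cases (1.22%). Of the peaks with H3K4me3 over 1 end, 3547 had it at the lower coordinate and 3469 at the higher, a near-even split.

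These classes turned on short distances. In the peaks with H3K4me3 over 1 end, H3K4me3 ran a median of 91 bp beyond the H3K36me3 end and 636 bp into the peak, and a median of 153 bp of H3K36me3 was left on the far side (quartiles 65 and 337 bp). In the peaks with H3K4me3 inside only, the median gap was 78 bp to the nearer end and 267 bp to the farther end. When the outer 200 bp of the H3K36me3 peak counted as its end, H3K4me3 reached both ends with a single peak in 55.2% of the overlapping peaks and lay inside only in 5.20%. The centres of overlapping H3K4me3 and H3K36me3 peaks were a median of 106.5 bp apart (quartiles 46 and 215.5 bp), and within 200 bp in 72.6% of pairs. In most overlapping pairs of root the listed peaks of the 2 marks therefore covered much the same stretch.

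A locus near the median length of its class shows each placing. Positions are given as listed on the clone, whose chromosome and genes are not given in the files. For H3K4me3 over 1 end, clone AC187085.3 held H3K36me3 from 51028 to 51877 and H3K4me3 from 51046 to 52010, with 831 bp shared. For H3K4me3 inside, clone AC185635.4 held H3K36me3 from 115120 to 116219 and H3K4me3 from 115346 to 115960, with 614 bp shared. For a whole cover, clone AC185274.3 held H3K36me3 from 26489 to 27172 within H3K4me3 from 26103 to 27343. For the rare case of both ends, clone AC186021.3 held H3K36me3 from 161203 to 161891, with H3K4me3 from 161032 to 161467 and again from 161781 to 162041.

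The placing changed with the length of the H3K36me3 peak, and the longest H3K36me3 peaks of root mostly lacked H3K4me3. H3K4me3 was on 40.9% of the 3777 H3K36me3 peaks under 500 bp, on 68.1% of the 11663 from 500 to under 1000 bp and on 69.7% of the 9406 from 1000 to under 2000 bp (interval 68.8 to 70.7%). It was on 32.9% of the 2223 peaks of 2000 bp and over (31.0 to 34.9%) and on 10 of the 226 peaks of 4000 bp and over (4.42%, interval 2.42 to 7.95%). The 1492 peaks of 2000 bp and over without H3K4me3 were spread over 1208 clones, with at most 5 on a clone, and held 4.51 Mb. Among overlapping peaks, the share with H3K4me3 inside only went from 14.0% under 500 bp through 35.1% and 60.5% to 71.1% at 2000 bp and over. The share wholly covered by 1 H3K4me3 peak went the other way, through 31.0%, 15.0%, 5.76% and 1.92%. The median number of shared bases was 347, 599, 926 and 1272 in the same order, a number that the length of the peak bounds. The median share of the overlapping H3K36me3 peak that was covered went down, through 87.4%, 82.4%, 72.9% and 54.5%.

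**Figure D1:**
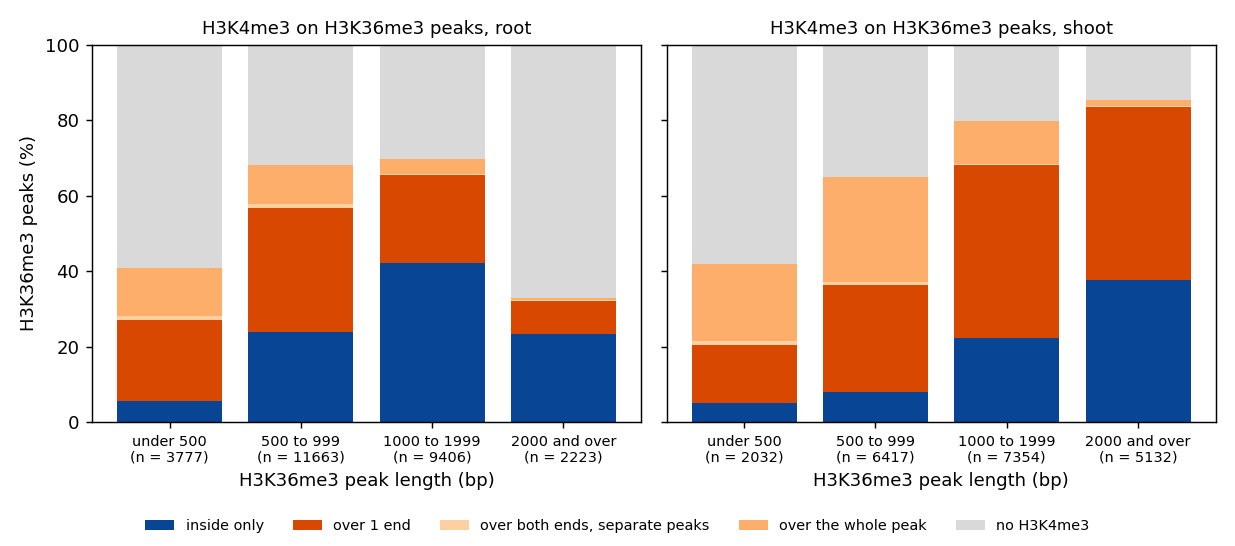
Share of H3K36me3 peaks (%) by the placing of H3K4me3 on them, in 4 classes of H3K36me3 peak length (bp), in root (left) and shoot (right); n is the number of H3K36me3 peaks and grey marks peaks with no H3K4me3. In root the grey part is largest at 2000 bp and over, where 32.9% of peaks had H3K4me3, against 85.4% in shoot.

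Inside the longest H3K36me3 peaks, H3K4me3 left a short gap to one end and a long gap to the other. For an H3K4me3 peak inside a H3K36me3 peak, the nearer gap was expressed as a share of both gaps together, which is 50% for a centred peak and near 0% for one at an end, with a median of 25% when positions are spread evenly. The median share was 26.4% over 3330 pairs in H3K36me3 peaks under 1000 bp, 23.9% over 4379 pairs from 1000 to under 2000 bp and 15.2% over 569 pairs of 2000 bp and over. The values under 2000 bp were thus close to those of evenly spread positions, and the class of 2000 bp and over was below them. In the last class the nearer gap had a median of 151 bp and the farther 984 bp. The profile across all H3K36me3 peaks, with or without H3K4me3, gave H3K4me3 at 15.9% of the outermost bases and at 60.3% of positions 500 bp inside in the class from 1000 to under 2000 bp. At 200 bp outside it was 4.15% and at 1000 bp outside 1.25%. In peaks of 2000 bp and over the values were 5.11% at the outermost base, 19.6% at 500 bp inside and 23.5% at 1000 bp inside, against 1.46% at 1000 bp outside.

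**Figure D2:**
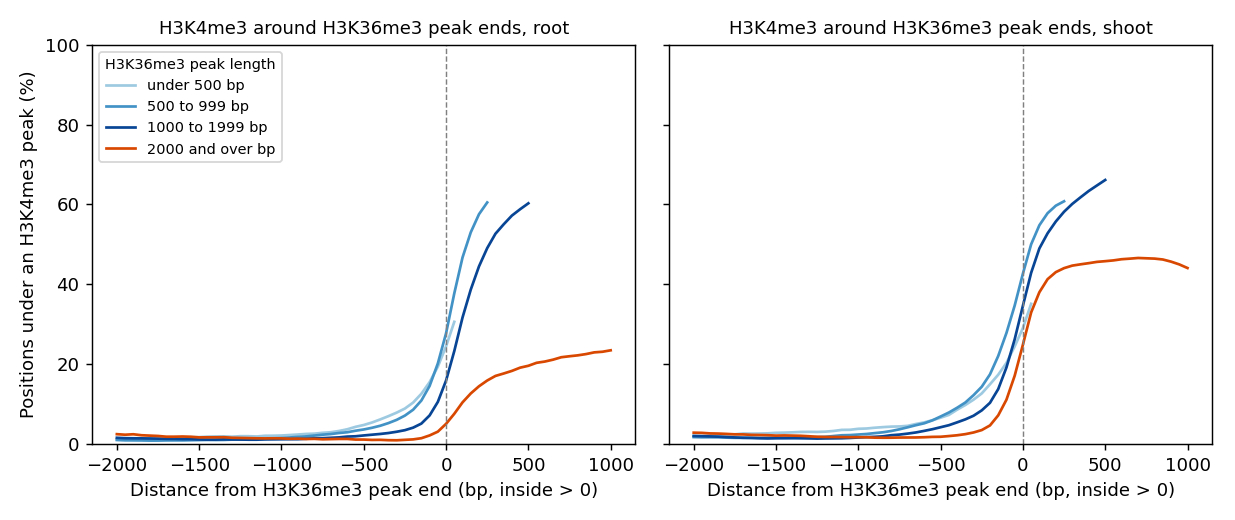
Share of positions under an H3K4me3 peak (%) by distance (bp) from the ends of H3K36me3 peaks, both ends pooled, in 4 classes of H3K36me3 length in root (left) and shoot (right); inside positions run to the middle of the shortest peak of a class. In root the classes from 500 to under 2000 bp go above 60% inside the peak, whereas the class of 2000 bp and over stays at or below 23.5%.

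In shoot the same pair of marks had a different geometry, with longer peaks of both marks. Inside H3K36me3 peaks of 1000 bp and over, H3K4me3 lay nearer to an end. Peak medians were 866 bp for H3K4me3 and 1204 bp for H3K36me3 in shoot, against 599 and 915 bp in root. How far these lengths account for the values below was not tested. Both organs have 1 library per mark, so the difference between organs was not tested. Shoot H3K4me3 was on 85.4% of the 5132 H3K36me3 peaks of 2000 bp and over (interval 84.5 to 86.4%) and on 518 of the 648 peaks of 4000 bp and over (79.9%). Of the overlapping shoot peaks 51.5% had H3K4me3 over 1 end and 27.4% inside only, against 41.8% and 44.7% in root. A single H3K4me3 peak covered the whole H3K36me3 peak in 20.5% in shoot and 12.3% in root. The nearer gap of inside H3K4me3 was 4.16% of both gaps in shoot peaks of 2000 bp and over, against 15.2% in root. From 1000 to under 2000 bp it was 14.3% against 23.9%, and under 1000 bp 25.9% against 26.4%. The H3K36me3 left beyond an H3K4me3 peak at 1 end had a median of 388.5 bp in shoot against 153 bp in root. Peak centres were 223 bp apart in shoot against 106.5 bp in root. Where 1 root and 1 shoot H3K36me3 peak met with H3K4me3 in root, the shoot peak was the longer in 81.7% of 10305 cases, with medians of 1501 bp in shoot and 991 bp in root. Without H3K4me3 in root the shoot peak was also mostly the longer, in 74.4% of 2840 cases, with medians of 1238 and 868 bp.

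Peaks that did not meet the other mark usually lay far from it. Of the 10293 H3K36me3 peaks without H3K4me3, 6.28% were on a clone with no H3K4me3 peak at all. For the other 9647 the gap to the nearest H3K4me3 peak had a median of 10102 bp (quartiles 3115 and 31080.5 bp). A gap of up to 500 bp was found for 5.90% of the 10293 and a gap over 5000 bp for 60.9%. Of the 21851 H3K4me3 peaks without H3K36me3, 23.3% were on a clone without that mark, and the other 16770 had a median gap of 19639.5 bp (quartiles 6066 and 48922.5 bp). A gap of up to 500 bp was found for 3.19% of them. Near misses, in which the marks were adjacent without touching, were thus a small part of both sets. A nearer peak on a neighbouring clone would not be seen, so a listed gap can exceed the distance to the nearest peak. Whether the sequence of each clone is continuous was not checked. Peaks on clones without the other mark have no gap here.

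**Figure D3:**
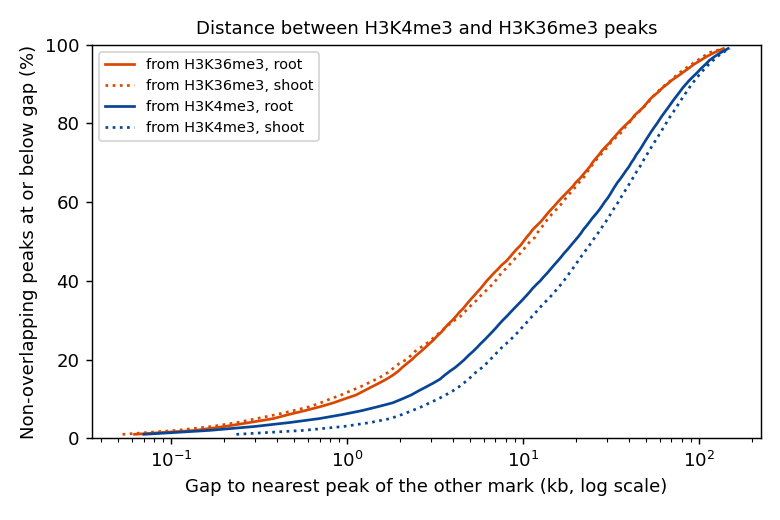
Cumulative share of non-overlapping peaks (%) by the gap to the nearest peak of the other mark on the same clone (kb, log scale), from H3K36me3 (orange) and from H3K4me3 (blue), in root (solid) and shoot (dotted); peaks on clones without the other mark are left out. In root the median gap is 10102 bp from H3K36me3 and 19639.5 bp from H3K4me3.

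H3K36me3 peaks with and without H3K4me3 differed in the other marks of root. H3K9ac, an acetylation found at the start of active genes, was on 47.7% of all root H3K36me3 peaks. It was on 72.1% of those with H3K4me3 (interval 71.5 to 72.8%) and on 7.83% of those without (7.33 to 8.37%). At 2000 bp and over the shares were 71.1% and 0.871%. DNA methylation, read from fragments released by the methylation-dependent enzyme McrBC, was on 4.91% of all H3K36me3 peaks. It was on 1.25% of those with H3K4me3 (1.09 to 1.43%) and on 10.9% of those without (10.3 to 11.5%). By length class the shares went from 1.17% and 3.27% under 500 bp to 6.57% and 24.1% at 2000 bp and over, with the same order in all 4. Longer peaks have more room for it and lengths can still differ within a class. The part of length was not tested. By bases, methylation peaks covered 0.283% of H3K36me3 with H3K4me3 and 2.32% of H3K36me3 without it. In H3K36me3 peaks of 4000 bp and over the order was the opposite, with 4.21% over 10 peaks and 0.923% over 216. H3K27me3, the mark of Polycomb repression, was on 1.34% of all H3K36me3 peaks, 1.67% of those with H3K4me3 and 0.816% of those without. This difference lay in the peaks under 500 bp, with 11.1% (9.67 to 12.8%) and 2.01% (1.51 to 2.68%), and in the 3 longer classes the intervals overlapped.

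On the H3K4me3 side, H3K27me3 was the more frequent where the partner mark was missing. Of all root H3K4me3 peaks 4.64% carried H3K27me3. The share was 1.60% where H3K36me3 was present (interval 1.43 to 1.80%) and 7.08% where it was not (6.75 to 7.43%). By H3K4me3 length the shares were 4.84% and 6.55% under 500 bp, 0.537% and 7.03% from 500 to under 1000 bp, and 0.893% and 10.5% from 1000 to under 2000 bp. At 2000 bp and over they were 4.27% (2.34 to 7.69%) and 9.52% (4.44 to 19.3%), with overlapping intervals. H3K9ac was on 51.3% of all H3K4me3 peaks, on 71.3% of those with H3K36me3 and on 35.3% of those without. The difference was also seen at like H3K4me3 length, with 74.3% and 41.5% from 500 to under 1000 bp. DNA methylation was on 0.83% of all H3K4me3 peaks, with 0.894% and 0.778% in the same order and overlapping intervals. The 2379 H3K36me3 peaks of 1000 bp and over with H3K4me3 over 1 end were read in the 200 bp inward from each end. H3K9ac was there at the H3K4me3 end in 56.5% of cases (54.5 to 58.4%) and at the other end in 29.8% (28.0 to 31.7%). The 200 bp at the other end can hold H3K4me3 too, since only its outermost base has to be free of it.

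The shoot lists separated the same classes. A shoot H3K4me3 peak lay on 67% of all root H3K36me3 peaks, on 97.0% of those with root H3K4me3 and on 18.2% of those without (interval 17.5 to 19.0%). The last share was 3.02% for peaks of 2000 bp and over, so most root H3K36me3 peaks without H3K4me3 had none in either organ. A shoot H3K36me3 peak lay on 53.9% of all root H3K36me3 peaks, on 65.3% of those with H3K4me3 and on 35.3% of those without. For H3K4me3, 90% of all root peaks met a shoot H3K4me3 peak, with 96.7% where root H3K36me3 was present and 84.5% where it was not. Shoot H3K36me3 was on 37.5% of all root H3K4me3 peaks, and on 65.2% and 15.3% in the same order. Thus 15.3% of the root H3K4me3 peaks without H3K36me3 carried that mark in shoot (14.8 to 15.8%).

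**Figure D4:**
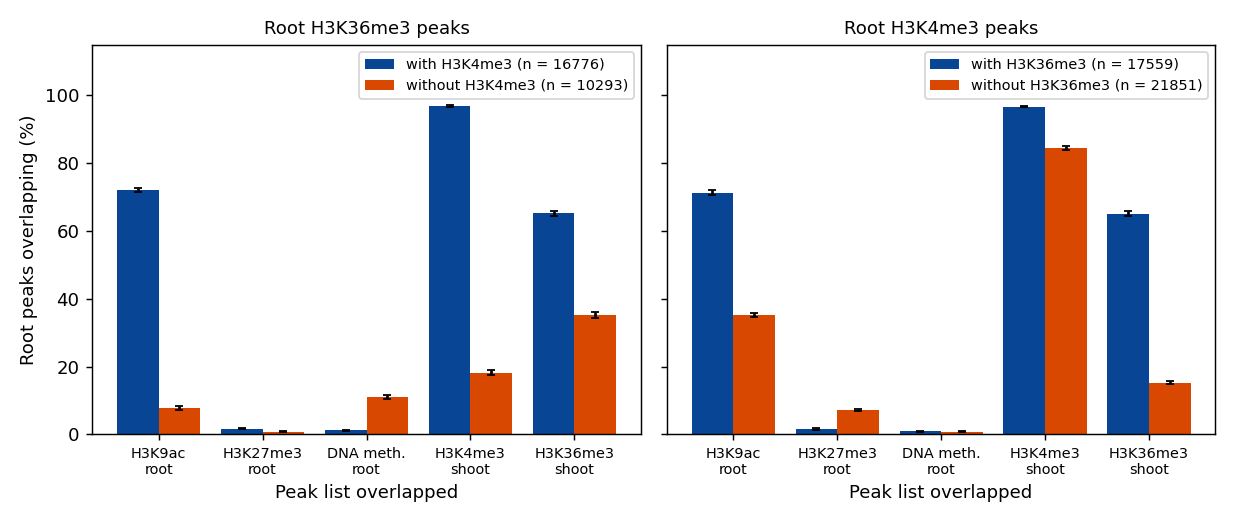
Share of root H3K36me3 peaks (left) and root H3K4me3 peaks (right) that overlap 3 other marks of root and the 2 marks in shoot (%), for peaks with the partner mark (blue) and without it (orange); error bars are 95% Wilson intervals. H3K9ac is on 72.1% of H3K36me3 peaks with H3K4me3 and on 7.83% of those without.

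In the root gene table, 20018 of the 186790 gene models carried both marks (10.7%), 16987 carried H3K4me3 only, 6098 carried H3K36me3 only and 143687 carried neither. The table covers models labelled as not being transposable elements. It gives for each model the marked length of each mark and a depth, the base coverage summed over the marked length. The depths hold the authors' scaling per library, so depths of the 2 marks are not compared with each other. Gene models were partly redundant: 30.7% of the models with both marks repeated all mark values of an earlier model. The share was 35.7% with H3K4me3 only, 26.1% with H3K36me3 only and 2.35% with neither, against 9.21% of all models. Of the H3K36me3 models 76.7% also had H3K4me3 by these counts, against 62.0% of the H3K36me3 peaks. The 2 shares are unlike measures, since a model counts with both marks anywhere on it and a peak only with an overlap.

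The marked lengths of the table did not equal those of the peak lists for H3K4me3. Its median length per marked gene model was 989 bp against 599 bp for the root peaks, whereas H3K36me3 had 942 bp against 915 bp. In gene models with both marks H3K4me3 was therefore the longer mark, with a median of 1074 bp against 954 bp for H3K36me3, the reverse of the peak lists. H3K36me3 was the longer in 37.4% of these models and more than 2 times as long in 5.24%. How the table's lengths were derived was not described in the labels or the header, so lengths are compared below only within the table.

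Gene models with both marks were listed with mRNA most often, and models with a single mark stood between them and models with neither. Over all models 23.7% had mRNA above 0 in root. The share was 72.7% of the 20018 models with both marks (interval 72.1 to 73.3%), 51.6% of the 6098 with H3K36me3 only (50.3 to 52.8%), 45.6% of the 16987 with H3K4me3 only (44.9 to 46.4%) and 13.0% of those with neither (12.9 to 13.2%). The lowest mean depth above 0 was 2.53 (base coverage divided by covered length), so mRNA at low levels may be present in models listed at 0. At or above the median of values above 0, a mean depth of 6.11, stood 11.8% of all models. The shares at this level were 41.5% with both marks, 25.0% with H3K36me3 only, 24.6% with H3K4me3 only and 5.66% with neither, so the single-mark classes no longer differed by more than their intervals. With models that repeat the mark values of an earlier one left out, 21% of the remaining models had mRNA above 0, and 74.0% of those with both marks. The mRNA comes from 1 root library, and genes are not replicates, so these shares describe that library.

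Among models above 0, the mRNA levels of the classes overlapped widely. The mean depth per covered base had a median of 7.23 (quartiles 4.25 and 15.1) with both marks, 6.78 (3.81 and 15.3) with H3K4me3 only, 5.90 (3.80 and 11.0) with H3K36me3 only and 5.32 (3.49 and 10.1) with neither. The covered mRNA length differed more, with medians of 1115 bp with both marks, 951.5 bp with H3K36me3 only, 781 bp with H3K4me3 only and 454 bp with neither. The mark classes thus differed more in whether mRNA was listed and over what length than in its depth. Covered length is bounded by the length of the gene model, which was not compared between the classes. Depths above 0 start at 2.53, which limits how far the depths can differ. The part of either limit was not tested.

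The share with mRNA was higher where the second mark was present at every length of the first. With H3K4me3 of 500 to under 1000 bp, 68.8% of models with H3K36me3 had mRNA and 42.2% of those without. With H3K4me3 of 2000 bp and over these shares were 81.9% (79.5 to 84.0%) and 65.6% (61.6 to 69.3%). In the other direction the length of H3K36me3 went with mRNA where H3K4me3 was also present, from 54.0% under 500 bp through 70.6% and 77.0% to 83.2% at 2000 bp and over. Without H3K4me3 there was no such course, with 49.3%, 56.6%, 50.4% and 41.8% (38.4 to 45.3%). Under 500 bp of H3K36me3 the intervals with and without H3K4me3 overlapped (51.5 to 56.5% and 46.3 to 52.2%). Models of 2000 bp and over of H3K36me3 without H3K4me3 numbered 789, and their median mean depth above 0 was 5.47, against 7.01 in the 1349 models with H3K4me3. For H3K4me3 of 2000 bp and over the order of the median depths was the opposite, with 8.47 where H3K36me3 was present and 9.75 where it was not.

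**Figure D5:**
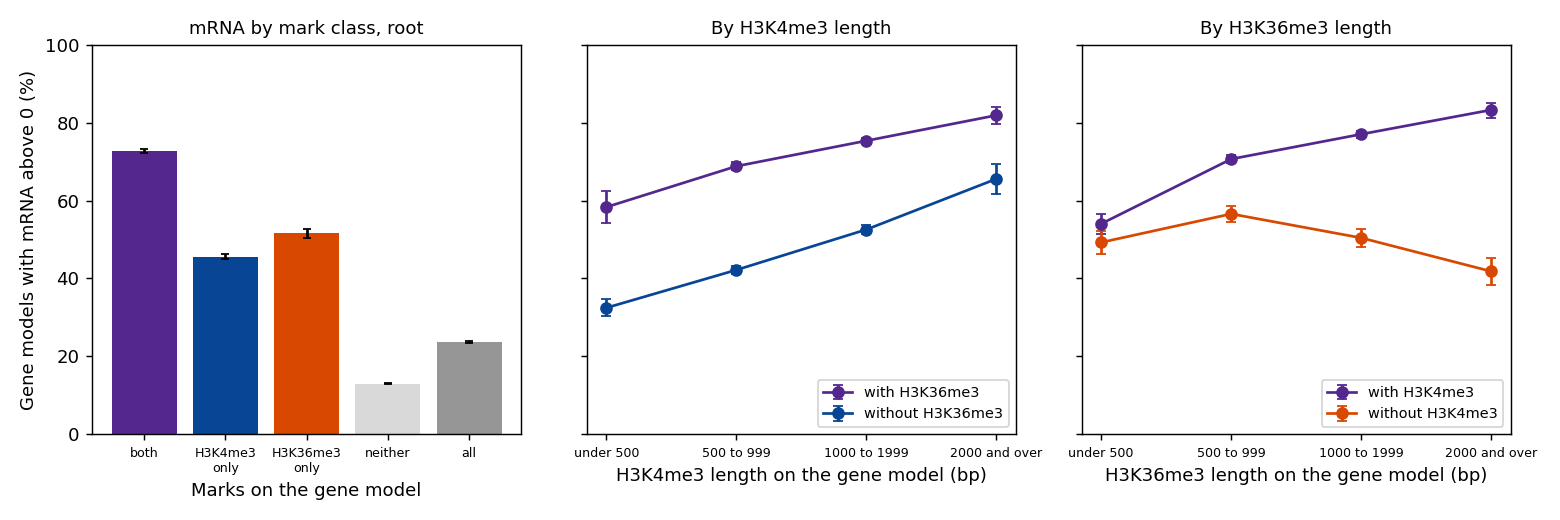
Share of root gene models with mRNA above 0 (%) by mark class (left), by H3K4me3 length with and without H3K36me3 (middle) and by H3K36me3 length with and without H3K4me3 (right), lengths in bp per gene model; error bars are 95% Wilson intervals. The share is 72.7% with both marks against 23.7% of all models, and at 2000 bp and over of H3K36me3 it is 83.2% with H3K4me3 and 41.8% without.

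H3K9ac moved with these classes. It was on 70.3% of models with both marks, 32.6% of those with H3K4me3 only, 14.7% of those with H3K36me3 only and 1.46% of those with neither, against 12.1% of all models. Without H3K9ac, mRNA was above 0 in 63.3% of the 5948 models with both marks (62.1 to 64.6%), 48.1% of the 5201 with H3K36me3 only (46.8 to 49.5%) and 37.9% of the 11453 with H3K4me3 only (37.0 to 38.8%). The order of the classes was therefore the same without H3K9ac. In the 897 models with H3K36me3 and H3K9ac but no H3K4me3 the share was 71.5% (68.4 to 74.3%). H3K27me3 was on 1.26% of all models, on 7.13% of those with H3K4me3 only, and on 0.694% of those with both marks, close to the 0.682% of those with neither. DNA methylation was on 3.68% of all models, on 7.53% of those with H3K36me3 only, 3.99% of those with neither and 2.36% of those with both.

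Across 5 equal classes of mRNA depth, both marks together were more frequent in each higher class, while H3K36me3 alone was on 5.90 to 7.93% of models in these 5 classes. Both marks were on 3.83% of models listed at 0, on 24.3% of the lowest class above 0 (23.5 to 25.3%) and on 39.6% of the highest (38.5 to 40.6%). H3K4me3 only was on 6.48%, 17.1% and 21.6% of the same groups, and H3K36me3 only on 2.07%, 7.14% and 5.90%. Of the models with H3K36me3, the share that also had H3K4me3 was 64.9% at 0, 77.3% in the lowest class and 87.0% in the highest (85.9 to 88.0%). Of the models with H3K4me3, the share that also had H3K36me3 was 37.2% at 0, 58.8% in the lowest class, 68.4% in the fourth (67.1 to 69.7%) and 64.7% in the highest (63.4 to 65.9%), so it did not go on increasing into the highest class.

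The amounts of the 2 marks went together across the 20018 models with both, while neither followed mRNA closely. Spearman's rho, given as a description since the models share the libraries and are not independent, was 0.523 between the depths of the 2 marks and 0.437 between their lengths. It was 0.242 between H3K4me3 depth and mean mRNA depth and 0.148 between H3K36me3 depth and mean mRNA depth. Among the 14551 of these models with mRNA above 0 the last 2 values were 0.172 and 0.0066. These mark depths are summed over the marked length. Taken per marked base over the 20018 models, rho was 0.488 between the 2 marks. With mean mRNA depth it was then 0.270 for H3K4me3 and 0.171 for H3K36me3. With the covered mRNA length the marked length gave 0.308 for H3K36me3 and 0.205 for H3K4me3 over the same 14551 models.

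By gene number, most models with both marks in root had both in shoot, while those with H3K36me3 only were spread over all 4 classes. Over all models in shoot 9.68% had both marks, 16.0% H3K4me3 only, 1.78% H3K36me3 only and 72.6% neither. Identifiers were matched between organs by their number, since the tables pad it with zeros differently. Of the models with both marks in root 66.6% had both in shoot (65.9 to 67.2%), 31.7% had H3K4me3 only and 1.09% had neither. Of the models with H3K4me3 only 76.7% were in the same class in shoot and 15.6% had both marks. Of those with H3K36me3 only 20.7% were in the same class in shoot, 16.7% had both, 19.4% had H3K4me3 only and 43.1% had neither (41.9 to 44.4%), so the same class was more frequent and neither mark less frequent than over all models. Shoot models with both marks, H3K36me3 only, H3K4me3 only and neither had mRNA of shoot above 0 in 75.6%, 59.0%, 43.9% and 11.6% of cases, the same order as in root.

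No identifier was found in the RefSeq gene table, so the models below have no gene name or role. The models with both marks and the most mRNA in root were Zm0134698, with 75514 reads, and Zm0032843, with 71501 reads. Zm0032843 carried H3K4me3 over 1457 bp at a scaled depth of 4.18 per marked base and H3K36me3 over 663 bp at 0.798, and had 79969 reads in shoot. Zm0134698 carried H3K4me3 over 1442 bp at 2.16 and H3K36me3 over 325 bp at 41.6 per marked base, while the median of models with both marks was 1.29 for H3K36me3. The same model had H3K27me3 over 131 bp at 355 per marked base and DNA methylation over 90 bp at 319. Scaling is per library and medians of these 2 marks were not computed, so these values are not ranked. In shoot its H3K36me3 spanned 142 bp. At the other extreme, Zm0021016 and Zm0011418 had the longest H3K36me3 among models with both marks and mRNA listed at 0. Zm0021016 carried H3K36me3 over 12720 bp and H3K4me3 over 633 bp in root, and in shoot had H3K4me3 over 1107 bp with no H3K36me3 listed. Zm0011418 carried H3K36me3 over 11014 bp in root and 5768 bp in shoot, with H3K4me3 over 813 bp in root, and both identifiers were listed at 0 for mRNA in shoot as well.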

How the data were processed

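The authors deposited peak lists, 1 per chromatin library, and a gene table per organ. The peak lists have no header, score or strand, and hold a few starts below 0. In the gene tables, per the file headers, each mark has a length and a depth. The deposited depths are signal, that is base coverage summed per gene model, in multiples of 1 step per library for the marks, from the values, and of 35 bases, the read length, for mRNA. The mRNA value is depth divided by covered length. The aligner, the peak caller, the genome build and total ChIP reads were not given in the sources used here. Other files, including the table of both organs together, were not used.

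Overlaps counted from 1 bp on the same clone, and shared bases used the union of each list. Ends were the outermost bases of a peak. Shares have 95% Wilson intervals. Python 3.11.15, NumPy 2.4.6, pandas 2.3.3 and SciPy 1.17.1 were used, and the interval functions were tested on simulated peaks. Example loci were the H3K36me3 peaks nearest the median length of their class among those whose H3K4me3 peaks met no other H3K36me3 peak, and named identifiers were the 2 models with both marks and the most mRNA reads and the 2 with the longest H3K36me3 and mRNA listed at 0. The comparison and its classes were chosen with earlier results of these data known. Alternatives changed the overlap, the peak length, the merging of peaks, the end window, repeated gene models and the mark and mRNA limits.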

Additional observations from a re-analysis of the deposited data

How the results depend on the processing

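Among 60 recomputed values, 21 lay inside the counting interval given with the result and 39 outside it. The share of H3K36me3 peaks on H3K4me3 was 52.9% when at least 50% of the peak had to be covered, 64.2% with gaps of up to 500 bp counted, 54.7% with peaks no shorter than their list's median and 63.5% with peaks merged where 500 bp or less apart. The share of H3K4me3 peaks on H3K36me3 was 42.0%, 46.3% and 38.0% under the first 3 of these and 43.9% from 100 bp. The median overlap was 928 bp with longer peaks and 701 bp with merged peaks. With longer peaks H3K4me3 was over 1 end in 36.6%, at both ends in 0.297%, over the whole peak in 6.98% and inside in 56.1%. With merged peaks the last 3 were 0.0121%, 13.2% and 45.6%. With the outer 200 bp as the end, the 4 shares were 37.0%, 2.61%, 55.2% and 5.20%. The third class then holds peaks where 1 H3K4me3 peak reached into both outer 200 bp, without need of a whole cover. It went from 12.3% to the most frequent class, and inside only from 44.7% to well under it. A wider end window can only add peaks to the third class and take peaks from inside only. From 100 bp of overlap, both ends had 0.860% and inside 45.6%. The median distance from H3K36me3 was 14979 bp with longer peaks and 11115 bp between centres, and from H3K4me3 22286 and 20429 bp. With repeated gene models counted once, 74.0% of models with both marks had mRNA, against 21% of all models. At or above the median mRNA level the shares were 41.5%, 24.6%, 25.0% and 5.66% for both marks, H3K4me3 only, H3K36me3 only and neither, as the stricter limit implies. With merged peaks, an alternative added after seeing the data, 35.3% of H3K36me3 peaks of 2000 bp and over had H3K4me3. The cause of the other shifts was not tested. No paired analysis was possible because each mark has 1 library per organ. The unknown depth of the ChIP libraries limits what the absence of a listed peak shows.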
